A study of Rattus norvegicus with 6 samples.

Results

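The miRNAs described here come from 5 hairpins that are known as markers of blood-borne immune cells: miR-142, miR-155, miR-223, miR-150 and miR-342. Every row of the deposited count table with one of these names was taken, whichever strand of the hairpin it stood for, which gave 10 of the 650 listed mature miRNAs. The filter on low counts kept 8 of these 10, among 463 miRNAs tested in all. The tissue was the trigeminal ganglion, home of the neurons that sense touch and pain in the face, taken from the operated side of Sprague-Dawley rats aged 8 to 10 weeks on day 14 after surgery. In the CCI-ION group (3 libraries), loose silk ligatures were tied around the left infraorbital nerve, a model of neuropathic facial pain. In the sham group (3 libraries), the nerve was exposed on the left side and not ligated. No drug, transgene or mutation was named for either group, so CCI-ION and sham differ by the ligation alone as far as the labels say. Whether each library came from 1 animal or a pool is not stated in the labels. The p-values therefore speak only of library-to-library spread, part of which may be technical.

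A miRNA is cut from a hairpin whose arms give a 5p and a 3p strand. Usually the cell keeps more of a given strand, which then binds messenger RNAs through its seed, bases 2 to 8. miR-142 is made in nearly all blood-derived cells and is little made elsewhere, which makes it a common sign of leukocytes in a tissue. miR-155 is switched on when macrophages and lymphocytes are activated, miR-223 is abundant in neutrophils and monocytes, and miR-150 is abundant in mature lymphocytes. miR-342 lies in an intron of the Evl gene and is found in blood cells and in brain. Sensory ganglia hold resident macrophages, and macrophages and T cells are known to gather there after a peripheral nerve injury.

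The strands that carry the levels below are printed as deposited, 5′ to 3′ with T for U and under their table names with the rat prefix rno-, and the seed is in capitals to show that no 2 of them share it.
rno-miR-142-3p: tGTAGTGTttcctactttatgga
rno-miR-142-5p: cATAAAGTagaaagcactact
rno-miR-155-5p: tTAATGCTaattgtgataggggt
rno-miR-223-3p: tGTCAGTTtgtcaaatacccc
rno-miR-223-5p: cGTGTATTtgacaagctgagttg
rno-miR-150-5p: tCTCCCAAcccttgtaccagtg
rno-miR-342-3p: tCTCACACagaaatcgcacccgt

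The 10 seeds all differed from each other, and 0 of the other listed miRNAs shared a seed with a member. None of the 650 listed sequences lay within 2 bases of a member over at least 19 bases, and none shared a stretch of 12 bases with a member on either strand, so reads of these miRNAs had no listed near copy to be confused with. RefSeq sequences were matched for 8 of the 10 strands, and all 8 were identical to the deposited ones. In the RefSeq hairpins of build GRCr8, printed next with both mature strands in capitals, miR-142 and miR-223 show the strand pairs whose balance is described further on.
Mir142: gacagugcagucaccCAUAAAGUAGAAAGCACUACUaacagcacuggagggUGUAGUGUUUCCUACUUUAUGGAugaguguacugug
Mir223: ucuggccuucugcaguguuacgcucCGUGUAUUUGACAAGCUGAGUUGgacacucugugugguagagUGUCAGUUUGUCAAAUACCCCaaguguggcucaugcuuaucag

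Total miRNA counts ran from 6420434 to 11014970 in the CCI-ION libraries and from 10084327 to 12560545 in the sham libraries. The members drew 2278 to 4568 counts in CCI-ION libraries and 2757 to 4184 in sham libraries. The libraries numbered 1 in both groups stood apart from the others in depth, with totals behind the deposited RPM of 24259518 (CCI-ION) and 24025572 (sham), against 13793797 to 15228984 in the other 4. Libraries of the same number also deviated together from their group means (correlations of 0.457 to 0.664 over the tested miRNAs), so each fold change is given without and with the replicate number as a block. The neuronal markers of the labelled tissue were abundant, summing to 52085 to 67044 CPM in CCI-ION and 56764 to 69656 CPM in sham. In such bulk tissue, fewer cells of a type and less RNA per cell cannot be told apart.

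Together the 10 strands were a small part of the ganglion's miRNA, 0.0381% of miRNA counts in CCI-ION and 0.0299% in sham libraries. Levels are TMM-scaled CPM, which relate each count to all miRNA counts of its library, and levels of different miRNAs compare sequences of 19 to 23 bases without a correction for how well each is captured. The order was headed by miR-150-5p, at rank 140 of the 650 by mean level, followed by miR-142-3p (rank 207) and miR-342-3p (rank 209). Next came miR-155-5p (rank 275), miR-142-5p (rank 311), miR-223-5p (rank 340), miR-223-3p (rank 357) and miR-342-5p (rank 398). miR-142-3p and miR-342-3p did not differ beyond their spread, with means of 71.5 ± 5.56 and 64.0 ± 11.9 CPM in CCI-ION and 43.8 ± 12.6 and 45.3 ± 8.61 CPM in sham (SD, n = 3 each). The spreads of miR-223-5p and miR-223-3p also overlapped, at 9.23 ± 2.78 and 6.72 ± 1.88 CPM in CCI-ION and 6.84 ± 1.00 and 5.58 ± 1.52 CPM in sham (SD, n = 3 each). Within libraries, however, miR-223-5p was above miR-223-3p in all but sham library 2. miR-155-5p and miR-142-5p overlapped in the libraries numbered 1, where sham library 1 held more miR-142-5p (20.2 CPM) than miR-155-5p (14.9 CPM).

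**Figure D1:**
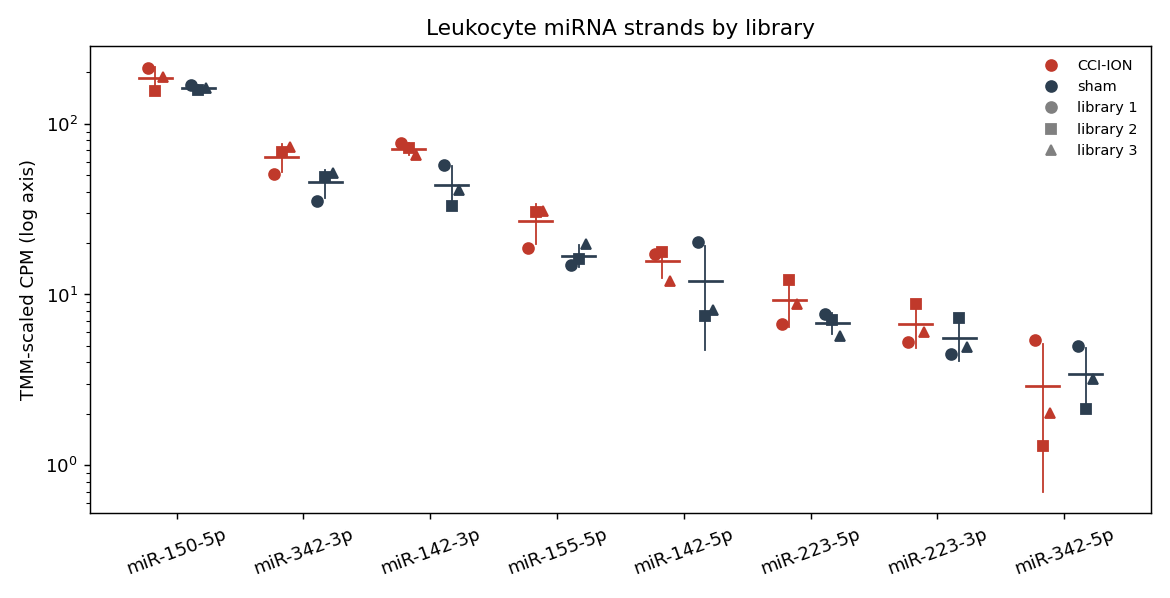
TMM-scaled CPM on a log axis for the 8 tested strands, by library, with CCI-ION in red on the left and sham in dark blue on the right of each name. Symbols give the library number, horizontal lines the mean and vertical lines 1 SD (n = 3). miR-142-3p is the strand whose groups do not overlap, with 65.8 CPM as its lowest CCI-ION library and 57.5 CPM as its highest sham library.

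Setting CCI-ION against sham asks whether the nerve injury changed these immune-cell miRNAs in the ganglion. Of the 8 tested strands, 7 had a positive log2 fold change, with a median of 0.40, while 237 of all 463 tested miRNAs (51.2%) were positive, with a median of 0.01. Without the block, 0 of the 8 passed an adjusted p of 0.05 with edgeR, DESeq2 or limma-voom, where edgeR called 0.648% of all miRNAs tested. At an unadjusted p under 0.05, edgeR had 2 of the 8, miR-142-3p and miR-155-5p, against 9.94% of all tested. With the block, edgeR called 3 of the 8 higher in CCI-ION, miR-142-3p, miR-155-5p and miR-342-3p, and 0 lower, against 6.05% of all tested called higher. DESeq2 with the block called the same 3 higher (5.62% of all tested), and limma-voom with the block called miR-142-3p and miR-342-3p (4.75% of all tested). The block takes out what libraries of a number share and tests the difference of CCI-ION from sham within numbers. It leaves 2 residual degrees of freedom, so its p-values lean on a variance shared across miRNAs. With both libraries numbered 2 left out, the blocked fit called 0 of the 8, against 3.45% of all tested called higher, and without those numbered 3 it also called 0, against 0.215%. Without those numbered 1 it called 3 higher, miR-142-3p, miR-142-5p and miR-155-5p, against 5.74%.

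miR-142-3p, the pan-leukocyte strand, had 76.9, 71.7 and 65.8 CPM in CCI-ION libraries 1 to 3, against 57.5, 33.0 and 40.8 CPM in sham libraries 1 to 3. Every CCI-ION library was above every sham library, which 6.7% of all tested miRNAs also showed in this direction. It was the only one of the 8 members without overlap. Its log2 fold change was 0.71 ± 0.22 (SE), with a 95% interval of 0.18 to 1.23 and an edgeR adjusted p of 0.316. With the block the log2 fold change was 0.73 ± 0.14, with an edgeR adjusted p of 5.02e-05, while DESeq2 gave an adjusted p of 0.000491 and limma-voom 0.0246. The difference within libraries of the same number was 0.42, 1.12 and 0.69 on the log2 scale for numbers 1 to 3, so it was smallest between the 2 deep libraries. With the block, the edgeR adjusted p was 0.0644 without the libraries numbered 2 and 0.126 without those numbered 3.

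The opposite strand, miR-142-5p, is also a working miRNA in leukocytes. It had 17.2, 17.7 and 11.97 CPM in CCI-ION libraries and 20.2, 7.43 and 8.13 CPM in sham libraries. The groups overlapped because sham library 1 was the highest of all 6, and the other 2 sham libraries were the lowest. Its log2 fold change was 0.38 ± 0.41 (edgeR adjusted p = 0.899) and with the block 0.46 ± 0.23 (edgeR adjusted p = 0.245), with a 95% interval of -0.02 to 0.95 in the blocked fit. Without sham library 1 the log2 fold change was 1.01 ± 0.26 (edgeR adjusted p = 0.239), and with the block and without both libraries numbered 1 it was 0.91 ± 0.22 (edgeR adjusted p = 0.0257). It was lower, at 0.13, without sham library 2 and at 0.17 without sham library 3, and with the block it was 0.12 without both libraries numbered 2.

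miR-155-5p, the strand induced in activated macrophages and lymphocytes, had 18.8, 30.6 and 30.9 CPM in CCI-ION libraries and 14.9, 16.1 and 19.7 CPM in sham libraries. CCI-ION libraries 2 and 3 were above all sham libraries, and CCI-ION library 1 lay within the sham range. The log2 fold change was 0.66 ± 0.24, with a 95% interval of 0.11 to 1.21 and an edgeR adjusted p of 0.432. With the block it was 0.63 ± 0.17, with an edgeR adjusted p of 0.00512, a DESeq2 adjusted p of 0.0388 and a limma-voom adjusted p of 0.0551. CCI-ION exceeded sham by 0.33, 0.92 and 0.65 on the log2 scale in libraries numbered 1 to 3. Without the libraries numbered 2 the blocked edgeR adjusted p was 0.21, and without those numbered 3 it was 0.328. The other strand, miR-155-3p, had 3 counts in CCI-ION library 2 and 0 in the other 5 libraries, and was not tested. A count of 0 allows up to 0.225 to 0.404 CPM in those 5 libraries, taking 3 counts as the limit for counting error only.

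miR-342-3p, from the intron of Evl, had 50.6, 68.2 and 73.3 CPM in CCI-ION libraries and 35.5, 49.1 and 51.4 CPM in sham libraries. The ranges overlapped, since CCI-ION library 1 lay just below sham library 3. Within each number, however, the difference was nearly constant, at 0.51, 0.47 and 0.51 on the log2 scale for numbers 1 to 3. The log2 fold change was 0.50 ± 0.21 (edgeR adjusted p = 0.496), and with the block 0.50 ± 0.13, with an edgeR adjusted p of 0.00383, a DESeq2 adjusted p of 0.00823 and a limma-voom adjusted p of 0.025. Leaving out the libraries of 1 number kept the blocked log2 fold change between 0.49 and 0.52. The edgeR adjusted p was then 0.0504 without number 1, 0.0644 without number 2 and 0.211 without number 3, so the call was lost each time.

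Its partner miR-342-5p was the lowest of the 8 tested strands and the only one with a negative log2 fold change. It had 63, 8 and 15 counts in CCI-ION libraries and 66, 21 and 32 counts in sham libraries, which is 5.43, 1.29 and 2.02 CPM in CCI-ION and 4.96, 2.14 and 3.21 CPM in sham. In both groups library 1 was the highest. Its log2 fold change was -0.19 ± 0.55 (edgeR adjusted p = 0.964) and with the block -0.28 ± 0.31 (edgeR adjusted p = 0.643). The sign turned without sham library 1 (0.19), CCI-ION library 2 (0.14) or CCI-ION library 3 (0.02), and the value was -1.05 without CCI-ION library 1.

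miR-223-3p, the strand known from neutrophils and monocytes, had 61, 55 and 45 counts in CCI-ION libraries and 60, 72 and 49 counts in sham libraries. These are 5.26, 8.85 and 6.05 CPM in CCI-ION and 4.51, 7.33 and 4.92 CPM in sham. The groups overlapped, although CCI-ION exceeded sham by 0.21, 0.26 and 0.29 on the log2 scale in libraries numbered 1 to 3. With its mean of 57 counts a library, counting error alone gives a coefficient of variation of 13.2%, against 28.0% observed among CCI-ION and 27.3% among sham libraries. The log2 fold change was 0.26 ± 0.30 (95% interval -0.46 to 0.97, edgeR adjusted p = 0.912), and with the block 0.26 ± 0.25 (95% interval -0.23 to 0.76, edgeR adjusted p = 0.588), so the interval includes both no change and the size seen for miR-342-3p. It was 0.03 without CCI-ION library 2, 0.12 without sham library 1 and 0.50 without sham library 2. miR-223-5p had 6.72, 12.2 and 8.74 CPM in CCI-ION libraries and 7.66, 7.12 and 5.72 CPM in sham libraries. Its groups overlapped as well, with a log2 fold change of 0.42 ± 0.28 (edgeR adjusted p = 0.782; with the block 0.38 ± 0.24, edgeR adjusted p = 0.339). That was 0.18 without CCI-ION library 2, and with the block it was 0.20 without the libraries numbered 2 and 0.70 without those numbered 1.

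miR-150-5p, the lymphocyte strand and the most abundant member, had 213, 155 and 189 CPM in CCI-ION libraries and 169, 158 and 161 CPM in sham libraries. The sham libraries lay close together (coefficient of variation 3.36%), and the CCI-ION libraries spread on both sides of them (15.5%). The log2 fold change was 0.19 ± 0.16 (95% interval -0.18 to 0.56, edgeR adjusted p = 0.872), and with the block 0.18 ± 0.11 (95% interval -0.04 to 0.40, edgeR adjusted p = 0.344). It was 0.08 without CCI-ION library 1 and 0.31 without CCI-ION library 2. Its other strand, miR-150-3p, had 1 count, in CCI-ION library 3, and was not tested.

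CCI-ION was higher than sham in all 3 numbers for 4 of the 8 strands, miR-142-3p, miR-155-5p, miR-223-3p and miR-342-3p, against 20.1% of all tested miRNAs. The sign differed between numbers for miR-142-5p, miR-223-5p, miR-150-5p and miR-342-5p.

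**Figure D2:**
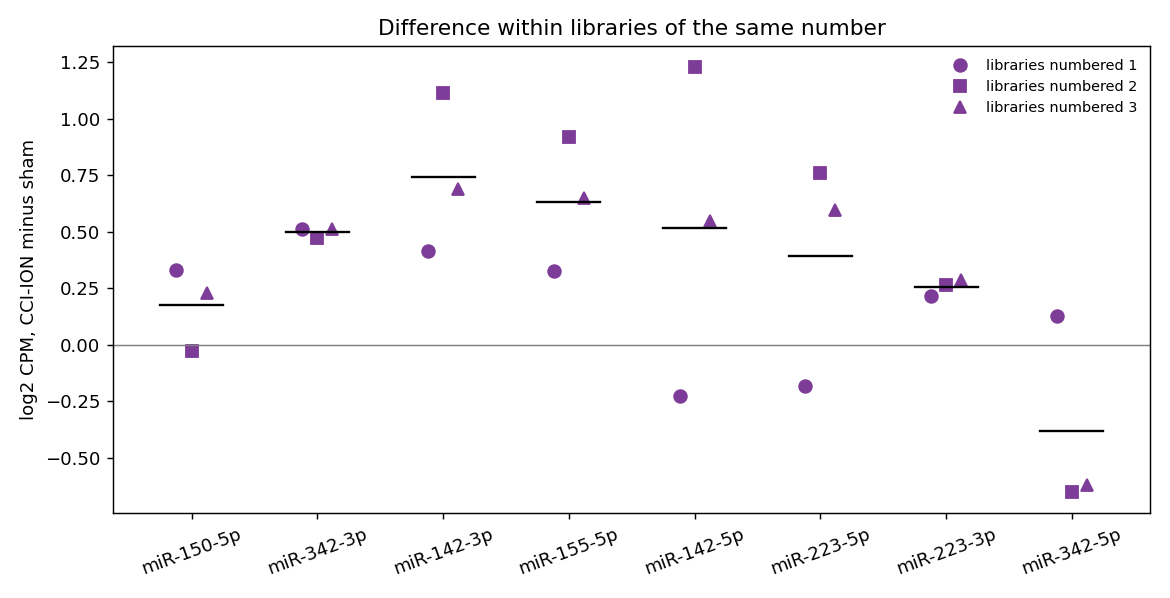
Difference in log2 CPM, CCI-ION minus sham, between libraries of the same number, for the 8 tested strands in order of their sham level. Symbols give the number and black lines the mean over the 3 numbers. miR-342-3p lies between 0.47 and 0.51 and miR-142-3p between 0.42 and 1.12, while miR-142-5p and miR-223-5p are below 0 in the libraries numbered 1.

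These fold changes are relative to the other miRNAs. miRNA counts made up 45.4% to 55.8% of the total behind the deposited RPM in CCI-ION libraries and 52.3% to 66.6% in sham libraries, so when those totals set the scale the median of all tested miRNAs moved to -0.35 with the block. On that scale 0 of the 8 members were called with the block, against 34.1% of all tested miRNAs called in either direction and 32.8% called lower. miR-142-3p was then at 0.39 ± 0.16 (edgeR adjusted p = 0.052), miR-155-5p at 0.29 ± 0.19 (edgeR adjusted p = 0.221) and miR-342-3p at 0.15 ± 0.16 (edgeR adjusted p = 0.45). miR-150-5p and miR-223-3p turned to -0.17 and -0.09 on this scale. In RPM itself, miR-142-3p had 36.8, 31.8 and 35.5 in CCI-ION libraries and 31.9, 21.3 and 26.8 in sham libraries. Its groups overlapped narrowly, with 31.84 in CCI-ION library 2 and 31.88 in sham library 1. The groups of all 8 tested strands overlapped in RPM. The share of all tested miRNAs that did so was not counted, so this is not read as a trait of the members. What that total counts is not stated, and its part in these differences was not tested.

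**Figure D3:**
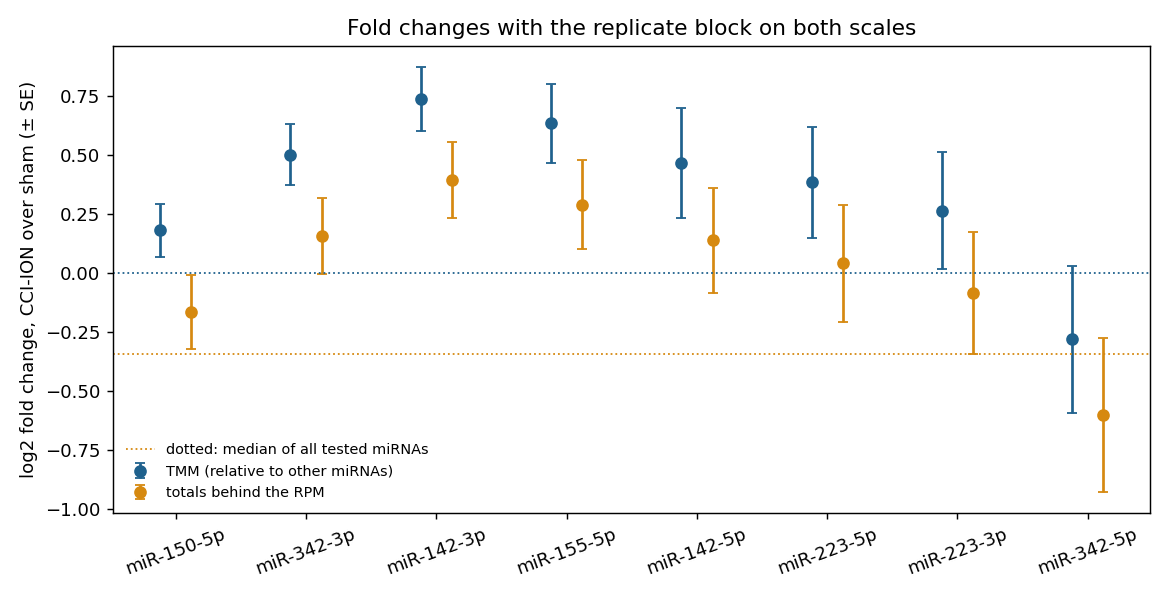
Log2 fold change of CCI-ION over sham with the replicate block (points) and its SE (bars) for the 8 tested strands, with TMM factors in blue and with the totals behind the RPM in orange. Dotted lines mark the median of all 463 tested miRNAs on each scale, near 0 and at -0.35. Every strand lies lower on the orange scale, and 7 of 8 lie above the dotted line of their own scale on both. The change of scale moves the strands and the median by similar amounts, so the position on the orange scale adds no separate support.

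The balance of the strands does not depend on how libraries are scaled, and 3 hairpins had both strands tested. The 3p strand of miR-142 outnumbered the 5p strand 4.6-fold in CCI-ION and 3.96-fold in sham (geometric means), and that of miR-342 outnumbered its partner 24.6-fold in CCI-ION and 13.4-fold in sham. For miR-223 the strands were near balance, with 0.735 3p counts per 5p count in CCI-ION and 0.807 in sham. In leukocytes miR-223-3p is known as the main strand, but here miR-223-5p had the higher count in 5 of 6 libraries, all but sham library 2. The difference between groups in the log2 ratio of 3p to 5p was 0.22 for miR-142, -0.13 for miR-223 and 0.87 for miR-342, with two-sided exact permutation p-values of 0.5, 0.6 and 0.4 (n = 3 each, 0.6 for each after adjustment over the 3 hairpins; the smallest possible p is 0.1). The log2 ratio of miR-342 was 3.20, 5.56 and 5.09 in CCI-ION libraries and 2.82, 4.46 and 3.96 in sham libraries. In each group it was lowest in library 1, and CCI-ION was above sham in all 3 numbers (exact sign-flip p = 0.25, the smallest possible). That difference was 1.58 without CCI-ION library 1 and 0.40 without CCI-ION library 2.

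**Figure D4:**
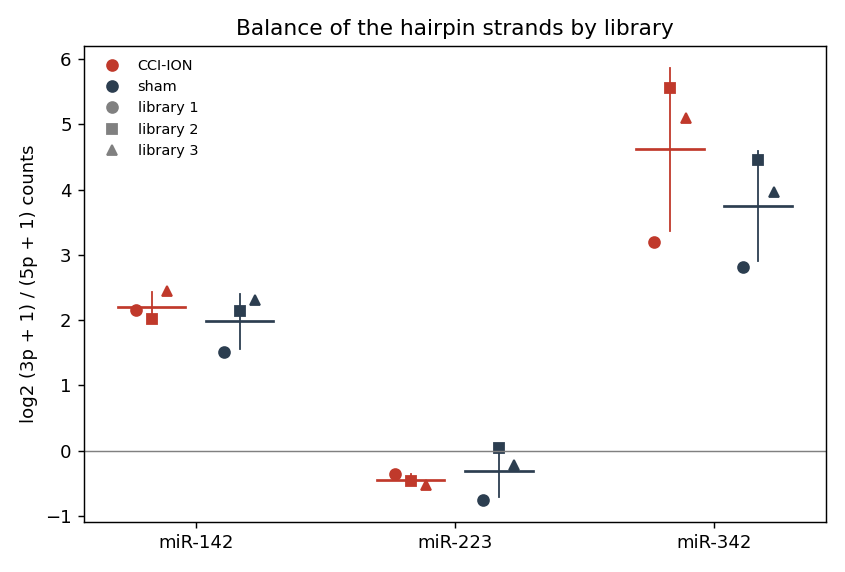
Log2 ratio of 3p to 5p counts, with 1 count added to each, for the 3 hairpins with both strands tested, by library, CCI-ION in red on the left and sham in dark blue on the right. Lines give the mean and 1 SD (n = 3). miR-223 lies near 0 in all 6 libraries, between -0.76 and 0.04, while miR-342 runs from 2.82 to 5.56.

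The members did not share 1 pattern over the 6 libraries. Likeness was measured as the root mean square difference of log2 CPM after centring each miRNA on its own mean. It was not scaled by how much a miRNA varied, so miRNAs that vary little can lie close together. The log2 range over the 6 libraries ran from 0.453 for miR-150-5p to 1.92 for miR-342-5p. Distances of different members are therefore not comparable degrees of likeness. The most alike members were miR-155-5p and miR-342-3p, at 0.147, and the least alike were miR-155-5p and miR-342-5p, at 1.02. The strands of 1 hairpin stood at 0.245 for miR-223, 0.295 for miR-142 and 0.966 for miR-342. Among 455 miRNAs that are not members, miR-494-3p of the imprinted Dlk1-Dio3 cluster was the closest to miR-155-5p (0.108) and the next closest to miR-342-3p (0.111), after miR-20a-5p (0.104), which lies within 2 bases of miR-20b-5p and of miR-17-5p. The next closest to miR-155-5p was miR-221-3p (0.19). The closest to miR-142-3p were miR-412-3p (0.156) and miR-341 (0.16). Those closest to miR-142-5p were miR-451-5p (0.241), a marker of red blood cells, and miR-3102 (0.283). For miR-150-5p they were miR-369-5p (0.0432) and miR-99b-5p (0.0482), and for miR-342-5p miR-33-5p (0.177) and miR-1306-3p (0.229). For miR-223-3p they were miR-380-3p (0.143) and miR-221-5p (0.147), and for miR-223-5p miR-466c-5p (0.114) and miR-15b-3p (0.124).

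Other miRNAs linked to leukocytes and inflammation were counted beside the members, from a list of miR-146a, miR-146b, miR-147, miR-511, the miR-181 family and miR-21. Of 15 tested strands, 0 were called without the block and 3 rose with it, miR-146a-5p, miR-146b-5p and miR-21-5p, against 6.05% of all tested miRNAs. With the totals behind the RPM the block instead called 1 of them higher, miR-21-5p, and 4 lower, all of the miR-181 family, where 32.8% of all tested were lower. The same 3 rose without the libraries numbered 1 or 2, and 0 without those numbered 3. The list's median log2 fold change was 0.09, near the 0.01 of all tested miRNAs. miR-146b-5p, which damps inflammatory signalling, had 7806, 8670 and 9391 CPM in CCI-ION libraries and 5560, 5956 and 6138 CPM in sham libraries, without overlap. It lies within 2 bases of miR-146a-5p, so reads of the pair may have been shared. miR-511-5p, which lies in the macrophage mannose receptor gene, was scarce, at 1.85 ± 0.48 CPM in CCI-ION and 1.01 ± 0.50 CPM in sham (SD, n = 3 each; edgeR adjusted p = 0.656, with the block 0.245).

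Red blood cell markers were read beside the members. The 5 listed strands of miR-451, miR-144 and miR-486 summed to 799, 469 and 408 CPM in CCI-ION libraries and 771, 285 and 403 CPM in sham libraries. None of the 5 was at 0 in all libraries, and with TMM factors none of the 4 tested was called with or without the block, with a median log2 fold change of 0.24. With the totals behind the RPM the block called miR-144-3p lower, and the median was -0.08. The sums were highest in the libraries numbered 1 of both groups and overlapped between groups. Their largest part was miR-486, which was also highest in the libraries numbered 1 of both groups. miR-451-5p had 134.9, 190.6 and 115.3 CPM in CCI-ION libraries and 172.2, 79.4 and 107.8 CPM in sham libraries. It was thus highest in library 2 of CCI-ION and in library 1 of sham, so the sums do not speak for each marker. The summed level of the 10 members was 394, 366 and 388 CPM in CCI-ION libraries and 314, 281 and 295 CPM in sham libraries, without overlap. The largest part was miR-150-5p, whose groups overlapped, with means of 186 CPM in CCI-ION and 163 CPM in sham. Among the tested members only miR-142-3p had no overlap by itself, against 6.7% of all tested miRNAs in this direction. In deposited RPM the same sums were 188, 163 and 209 in CCI-ION libraries and 174, 181 and 194 in sham libraries, so there the groups overlapped. The part of blood in the members' levels was not tested. With the block, 6 of 19 tested neuronal strands and 2 of 8 tested muscle strands were lower in CCI-ION and 0 were higher, against 5.62% of all tested called lower. They were miR-218a-5p, miR-138-5p, miR-129-5p, miR-128-3p and both strands of miR-124 among the neuronal and miR-133a-3p (near copy miR-133b-3p) and miR-1b (near copy miR-1-3p) among the muscle strands. These were edgeR calls, and without the block edgeR called 0 of either list. DESeq2 with the block called 4 neuronal strands lower and limma-voom 3, against 18 and 17 of all 463 tested. Both left out miR-124-5p and miR-218a-5p, and both called the same 2 muscle strands. Without the libraries numbered 2, the blocked edgeR fit called 2 neuronal and 3 muscle strands lower, against 15 of all 464 tested. With the totals behind the RPM the block called 14 of 19 neuronal and 5 of 8 muscle strands lower, against 32.8% of all tested. With TMM factors and without the libraries numbered 3 no strand of either list was called. Without those numbered 1, the blocked edgeR fit called 5 neuronal and 2 muscle strands lower, against 19 of all 453 tested. Muscle strands summed to 3689 to 9060 CPM in CCI-ION and 5611 to 11313 CPM in sham, and their part in the members' values was not tested.

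**Figure D5:**
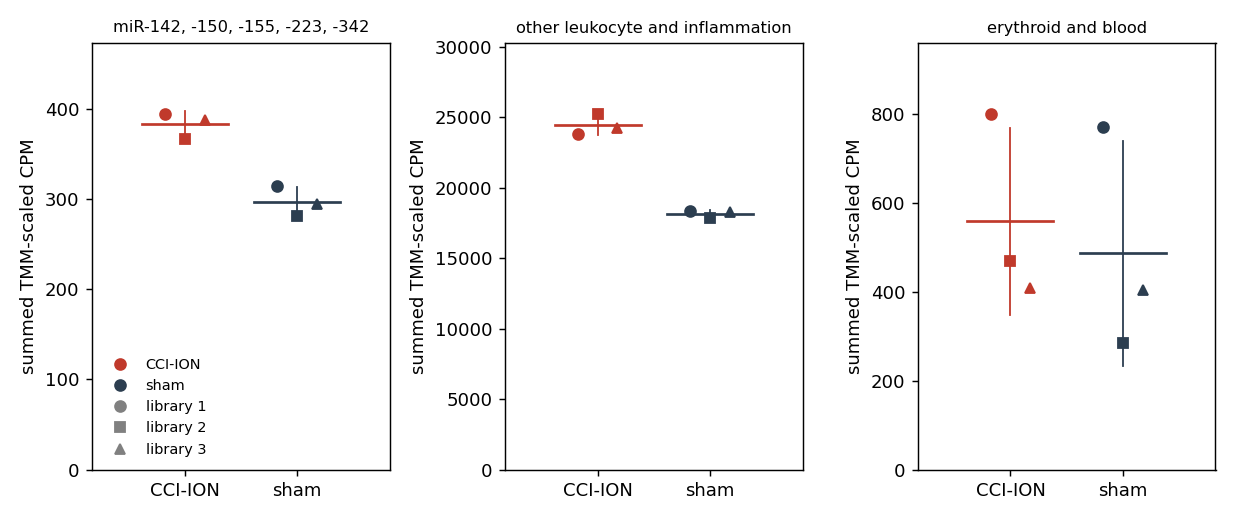
Summed TMM-scaled CPM per library for the 10 members, for the other leukocyte and inflammation list and for the red blood cell list, each axis starting at 0, with CCI-ION on the left and sham on the right. Lines give the mean and 1 SD (n = 3). The member sums are 366 to 394 CPM in CCI-ION and 281 to 314 CPM in sham on this scale, although they overlap in RPM, and the red blood cell sums of the groups overlap.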

How the data were processed

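The authors deposited raw counts for 650 mature miRNAs in 6 libraries and RPM values per library. Per the submitters' processing notes, cutadapt 1.14 and Bowtie 1.1.1 were used with genome build rn6; the counter and the annotation are not stated. Each deposited RPM value equals the deposited count times 1 constant per library (whole reads within 0.01 for 100% of values), so both give the same reads. Libraries were built from 1 µg of total RNA with a TruSeq RNA kit, per the labels. The choice of small RNA is not stated.

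Members, lists and alternatives were chosen with earlier results of these data known. Counts were tested over all 463 miRNAs kept by filterByExpr (187 left out) with the quasi-likelihood test of edgeR 4.0.16 (R 4.3.3, robust, TMM), Benjamini-Hochberg adjusted p under 0.05. DESeq2 1.42.0, limma-voom (limma 3.58.1), other scalings, no filter, libraries left out and the replicate number as a block were alternatives. Same-number libraries correlated at 0.664, 0.591 and 0.457 in their deviations from the group mean, and other combinations at -0.614 to 0.166. This was taken as pairing, though the labels do not say what a number stands for. Deviations from a group mean cancel within the group, so high same-number correlations by themselves lower those of the other combinations. With 3 libraries a group few matchings exist, and whether this one arose by chance was not tested. All 10 members are named. Listed miRNAs could be named where called or among the 2 most abundant of their list, and for each tested member the 2 closest miRNAs are named. miR-511-5p was named after its values were seen. Log2 CPM used a prior count of 2. Strand ratios used 1 added count. The fits were run on simulated counts only to check the sign of called changes, which were larger than any member's. The simulation held no effect of the library number, so it does not speak to the blocked calls. Within groups, every pair of libraries differed beyond sampling noise, with chi-square values of 164.6 to 732 per degree of freedom. Floors cover counting error only, and no molecular identifiers are described. The intervals of fold changes come from the edgeR fit, which includes the spread between libraries.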

Additional observations from a re-analysis of the deposited data

How the results depend on the processing

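Of all tested miRNAs, 3 were called as reported, 6 with the totals behind the RPM, 6 with no filter and 9 with DESeq2, while leaving out single libraries gave 1 to 7. With the replicate block, 54 were called by edgeR, 44 by DESeq2, 39 by limma-voom, 51 with RLE factors, 60 with upper quartile factors (43 higher, 17 lower) and 158 with the totals behind the RPM (6 higher, 152 lower). The block called 45, 31 and 5 without the libraries numbered 1, 2 and 3. The members called were 0 in every fit without the block. With it they were 3 by edgeR, by DESeq2, and with RLE or upper quartile factors, 2 by limma-voom, 0 with the totals behind the RPM, and 3, 0 and 0 without the libraries numbered 1, 2 and 3, where fewer libraries leave 1 residual degree of freedom. With all 6 libraries the block changed no other member's call, and without those numbered 1 it added miR-142-5p. miR-150-5p turned to -0.15 and miR-223-3p to -0.11 with the totals behind the RPM, and to -0.17 and -0.085 with the block as well. miR-342-5p turned to 0.19, 0.14 and 0.02 without sham library 1, CCI-ION library 2 and CCI-ION library 3, and single-library omissions spanned -1.05 to 0.19. Leaving out 1 library moved the difference in strand ratio from -0.021 (without sham library 1) to 0.38 for miR-142, from -0.36 to 0.042 (without sham library 2) for miR-223, and from 0.40 to 1.58 for miR-342. Adding 0.5 or 2 counts kept each sign. The cause of these changes was not tested. Counts of miR-223-3p, miR-223-5p and miR-342-5p were low, at 8 to 102 a library. For miR-342-5p, counting error alone gives a coefficient of variation of 17.1%, against 76.0% observed among CCI-ION and 41.4% among sham libraries. For miR-223-5p it gives 11.6%, against 30.1% among CCI-ION and 14.6% among sham libraries. The part of depth in these spreads was not tested.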

Other observations

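Of the remaining cell type lists, the myelinating glia list had 1 of 7 tested strands higher in CCI-ION, miR-219a-1-3p, at 15.1 ± 2.08 CPM in CCI-ION and 4.77 ± 1.08 CPM in sham (SD, n = 3 each), called by edgeR without the block (adjusted p = 0.0239) and with it. The fibroblast and mural list had 2 of 9 higher with the block by edgeR and DESeq2 (miR-199a-5p and miR-10a-5p), 0 by limma-voom, and 0 by edgeR without the libraries numbered 2 or 3. The epithelial list had 1 of 10 higher with the block, miR-205, which was not called without the libraries numbered 3, while DESeq2 and limma-voom with the block also called miR-375-3p lower. Over all tested miRNAs, edgeR called 6.05% higher with the block and 0.648% in either direction without it. DESeq2 and limma-voom with the block called 18 and 17 of all 463 lower. The endothelial list, miR-126a-3p and miR-126a-5p, had 0 of 2 called with TMM factors, and miR-126a-5p was lower with the block and the totals behind the RPM. On that scale, where 32.8% of all tested miRNAs were lower, the block called 3 glial, 2 epithelial and 1 fibroblast and mural strand lower.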
